A study of Mus musculus with 6 samples.

Results

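H19, Nctc1, Mest and Peg3 are counted here as imprinted genes, although the study describes Nctc1 as no longer imprinted in adult muscle cells. They were compared between myotubes transfected with control siRNA (siCon) and myotubes in which the long noncoding RNA (lncRNA) H19 was targeted by siRNA (siH19). The 4 genes were chosen by symbol from a list of 3019 features that had already been called as differing between siCon and siH19, so their differences are given as a description and were not tested. Each gene has 1 row among the 3019 features. Both groups were C3H mouse myoblasts that had been grown to confluence in medium with 10% fetal bovine serum and then switched to 2% horse serum, which makes them fuse into multinucleated myotubes. Control siRNA or a single siRNA against H19 was transfected 40 h after the switch, and RNA was taken after a further 48 h, on the fourth day. Each group had 3 libraries of paired 76-bp reads, made from 1 μg of total RNA depleted of rRNA. By the study's methods each siRNA was transfected into 3 replicates on multi-well plates, without saying whether these were wells of 1 culture or independent cultures.

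Imprinted genes are transcribed mainly from the copy inherited from 1 parent, and many lie in clusters in which a single methylated control region sets the expression of several neighbours. H19 is transcribed from the maternal copy in most tissues, is among the most abundant lncRNAs of fetal and differentiating skeletal muscle, and is the host transcript of miR-675. Its neighbour Igf2 encodes a growth factor and is transcribed from the paternal copy. Nctc1 is an lncRNA transcribed across the muscle enhancer that serves the locus. Mest and Peg3 lie in other clusters, are transcribed from the paternal copy, and have been grouped with H19 and Igf2 in a network of imprinted growth genes. Parental alleles were not measured in these libraries.

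The values are pooled. For each feature there is 1 log2 FPKM per group (the logarithm of sequenced fragments per kilobase of RNA, scaled by library size), estimated over the 3 libraries of that group together. These pooled values are the authors' own, made with Cuffdiff. From pooled values alone the spread between libraries, the depth of each library and the error of a value are unknown. No test across libraries could therefore be made here. The authors' own comparison of the groups, which gave the calls, was not used. All levels below are these pooled values, and each difference is the siH19 value minus the siCon value on the log2 scale, with a rounding error of up to 0.01. Because every listed feature was a call, the difference has a gap around 0, with a smallest absolute value of 0.31. Its median over the 3019 features is 0.45. Of all listed features, 62.8% were higher and 37.2% lower in siH19. In bulk RNA, fewer cells of a type and less RNA per cell cannot be told apart.

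The labelled cell type was checked against marker genes. Of 10 myotube markers, 8 are listed, with siCon levels of 4.26 to 11.81 on the log2 FPKM scale, and all 8 were higher in siH19, by 0.53 to 1.43. These are Myog, Mymk, Ckm, Acta1, Mylpf, Tnnt3, Actn2 and Myh3, the last of them only within a joint feature of 5 myosin heavy chain genes. Ttn and Des are not listed. Of 3 myoblast markers only Myf5 is listed, which stood at 3.41 in siCon and 3.03 in siH19 on the same scale, and of 4 fibroblast markers only Col1a1, with 4.81 and 5.22. The blood marker Ptprc and the endothelial marker Pecam1 are not listed, and a gene that is not listed may be absent, unchanged or not called. The myotube markers thus move with the same contrast as the 4 genes, and their part in the differences below was not tested.

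H19 was the most abundant of the 4 genes in both groups. Its log2 FPKM was 11.20 in siCon and 7.50 in siH19, a difference of -3.70. On the linear scale these are 2353 and 181 FPKM, which leaves 7.69% of the siCon level. This gene is the target of the siRNA, and the direction goes with the labels. Only 2 of the 3019 features have a lower difference, and both of them are at the floor of -10 in siH19. In linear FPKM, where its level decreased by 2172, it is second only to a feature with no gene symbol whose level decreased by 2381. H19 made up 2.11% of the summed FPKM of the listed features in siCon and 0.126% in siH19.

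H19 remained an abundant RNA after the knockdown. It ranked 7th of the 3019 features by level in siCon and 89th in siH19, where 97.0% of the features were still below it. Within 0.5 log2 FPKM of it in siCon lie 4 other features, and these 4 were higher in siH19, by 0.32 to 0.56. Just above that range lie a pair of features at 11.81 in siCon, and they differed in direction. XLOC_028363, which has no gene symbol, was at 10.24 in siH19, a difference of -1.57, and Mylpf, a myosin light chain of fast muscle, was at 12.61, a difference of 0.80. The nearest by Euclidean distance over the siCon and siH19 levels, among features with 1 gene symbol, are Anxa2, S100a10 and Anxa1, at distances of 2.24, 2.26 and 2.31. For the other 3 genes the nearest such feature is within 0.1.

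**Figure D1:**
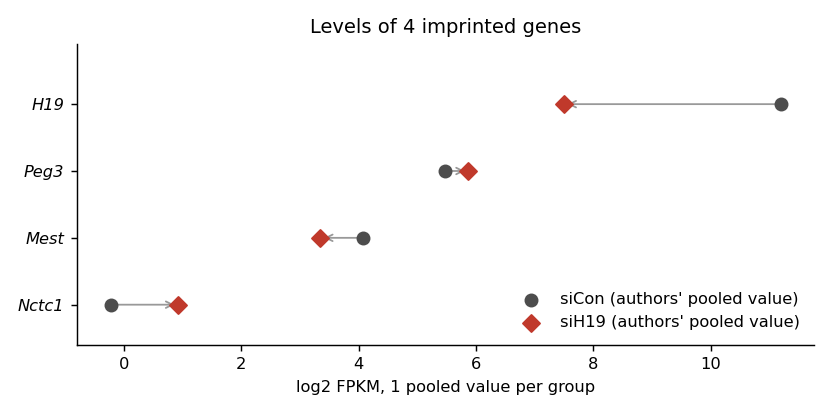
Pooled log2 FPKM of H19, Peg3, Mest and Nctc1 in siCon (grey circles) and siH19 (red diamonds), with an arrow from siCon to siH19 and no error bars because each group has a single pooled value. H19 moves from 11.20 to 7.50 and Mest from 4.07 to 3.35, while Nctc1 moves from -0.23 to 0.92 and Peg3 from 5.48 to 5.87; with the listed median of 0.45 subtracted, the Peg3 difference is -0.06.

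The H19 feature (XLOC_026027, mm10, chromosome 7, 142575490 to 142578146, 2657 bp) covers the annotated gene (ENSMUSG00000000031.16, lincRNA, minus strand, 142575529 to 142578143) almost edge to edge. It holds all 2460 annotated exonic bases. The hairpin of miR-675 lies inside it, in an exon, 999 bases from the 5′ edge of the feature. The mature sequences of the microRNA carried by this RNA are shown here because they belong to the measured transcript, with the seed (bases 2 to 8) in capitals, from RefSeq on GRCm38.p6. The microRNAs themselves have no listed feature and were not measured.
mmu-miR-675-5p: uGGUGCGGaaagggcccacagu
mmu-miR-675-3p: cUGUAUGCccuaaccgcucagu

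Nctc1 lies next to H19 on the same strand and differed in the opposite direction. Its log2 FPKM was -0.23 in siCon and 0.92 in siH19, a difference of 1.15. On the linear scale the level went from 0.853 to 1.89 FPKM, an increase of 1.04 FPKM. Nctc1 was the least abundant of the 4 genes in both groups, with 17.03% of listed features below it in siCon and 25.1% in siH19. Among features with a gene symbol only, these shares were 8.28% and 16.1%, and among features that reach a log2 FPKM of 0 in either group, 4.77% and 13.1%. By difference it ranked 401st from the highest, and 86.5% of the features lie below it. Among the 243 other features within 0.5 log2 FPKM of its siCon level, the differences run from -2.51 to 2.82 with a median of -0.50, and 36 of them exceed that of Nctc1. None of those 243 has an absolute difference under 0.39; at the level of Peg3 the smallest is 0.31. With 1 FPKM added to each value before the logarithm, the difference of Nctc1 is 0.64, and with the listed median subtracted it is 0.70.

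The Nctc1 feature (XLOC_026026, chromosome 7, 142544607 to 142558889, 14283 bp) extends past the annotated gene (ENSMUSG00000087090.7, processed transcript, minus strand, 142544609 to 142558596) at the 5′ end, by 291 bases relative to the RefSeq start at 142558598. The feature therefore takes in the whole promoter window. That window is shown here for this reason, 250 bases before to 50 after the RefSeq start, 5′ to 3′ on the minus strand, with each CG dinucleotide in capitals.
Nctc1 promoter, chr7:142558549-142558848: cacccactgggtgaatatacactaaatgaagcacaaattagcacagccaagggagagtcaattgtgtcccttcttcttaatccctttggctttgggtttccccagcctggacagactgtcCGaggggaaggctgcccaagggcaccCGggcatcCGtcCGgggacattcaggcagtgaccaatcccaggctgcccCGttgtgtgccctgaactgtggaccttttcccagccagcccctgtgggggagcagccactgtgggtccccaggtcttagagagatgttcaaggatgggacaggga

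This window holds 5 CG dinucleotides, an observed-over-expected ratio of 0.203 at 57.3% G and C. Over 32817 RefSeq promoter windows of 300 bases, the median is 7 CG, and 61.9% hold at least as many as Nctc1. The window holds 1 copy of CANNTG, the E-box that muscle bHLH factors such as MyoD and myogenin bind, searched on both strands by its palindrome, and 72.3% of all windows hold at least 1. RefSeq promoter windows matched Nctc1, Mest and Peg3 but not H19.

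The levels of the 3 main genes of the locus were closer together in siH19. In siCon the FPKM of H19 was 2759 times that of Nctc1 and 154 times that of Igf2. In siH19 these ratios were 95.7 and 6.82. H19, the siRNA target, is the numerator of both, so its difference of -3.70 is part of each change. Igf2, the paternal growth factor gene, stood at 3.93 in siCon and 4.73 in siH19 (log2 FPKM), a difference of 0.80. The feature named Ins2, an insulin gene beyond Igf2, had 1.13 and 2.25, a difference of 1.12. On the other side of Nctc1, 26.9 kb away, Tnnt3 encodes fast skeletal troponin T and was at 10.03 and 10.56, a difference of 0.53. Within 150 kb of the 5′ edge of H19 there are 7 listed features, of which 6 were higher in siH19, against 62.8% of all listed features, and the 1 that was lower is H19, the siRNA target itself. That region was drawn after the values had been seen. The other 2 features in it are the joint feature of Syt8 and Tnni2, with a difference of 0.49, and a feature with no symbol, with 1.95. The latter lies within the annotated span of Ins2, so that Ins2 may be counted in 2 of the 7 features. Subtracting the listed median of 0.45 leaves each of these 6 differences above 0. The 0.49 of Syt8 and Tnni2 and the 0.53 of Tnnt3 exceed that median only narrowly.

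**Figure D2:**
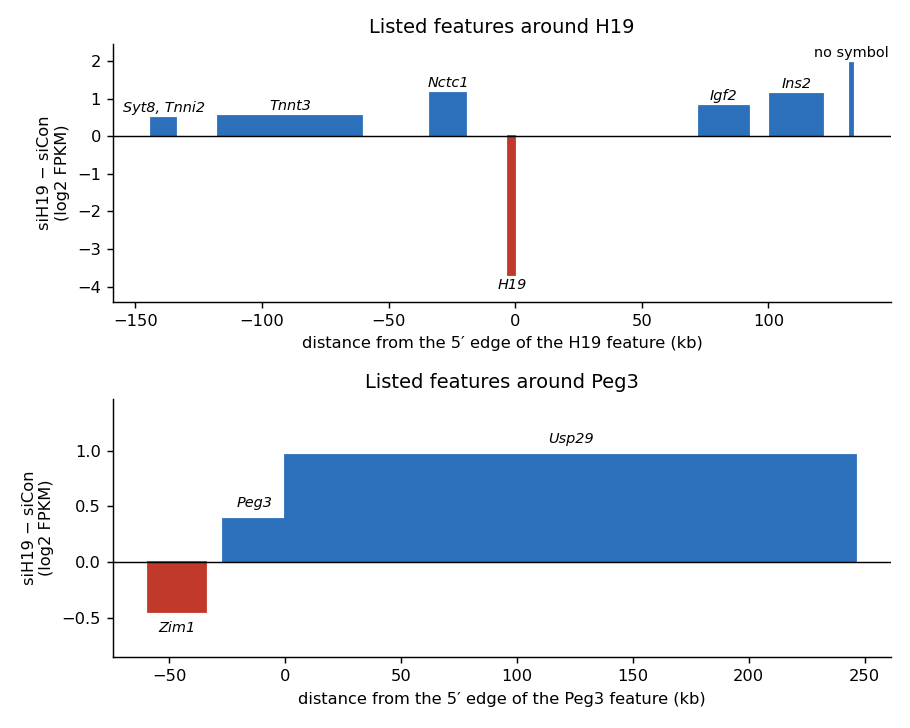
Difference between siH19 and siCon (log2 FPKM, pooled values) of each listed feature against its distance in kb from the 5′ edge of H19 (top) and of Peg3 (bottom), with bar width as feature span, blue for higher and red for lower in siH19. Around H19, 6 features are higher and only H19 is lower, at -3.70. Around Peg3, Zim1 is at -0.45, Peg3 at 0.39 and Usp29 at 0.96; with the listed median of 0.45 subtracted, Peg3 is at -0.06.

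Mest was lower in siH19. Its log2 FPKM was 4.07 in siCon and 3.35 in siH19, a difference of -0.72, or -1.17 with the listed median subtracted. On the linear scale the level went from 16.8 to 10.2 FPKM, which is 60.7% of the siCon level. Mest encodes a protein of the alpha/beta hydrolase fold family and is a marker of growing mesodermal tissue. It ranked 915th of 3019 by level in siCon and 1402nd in siH19. Its difference is the 354th lowest, with 11.7% of the features below it. Among the 506 other features within 0.5 log2 FPKM of its siCon level, 315 were higher and 191 lower, and 21 have a lower difference than Mest. The 3 features with the most similar pair of levels, at distances of 0.0825 to 0.110, are Rgs12, Sppl2b and Cmtm6.

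The span of the Mest feature is not that of the gene. The feature (XLOC_021973, chromosome 6, 30733506 to 30896822) covers 163 kb, of which 9.16% lies in the annotated Mest gene (ENSMUSG00000051855.15, protein coding, plus strand, 30723547 to 30748465). Copg2, a coatomer subunit gene on the minus strand from 30747554 to 30896794, accounts for 91.4% of the span and overlaps the 3′ end of Mest by 912 bp. Copg2 is imprinted in the opposite parental direction in some tissues. The table gives no strand for a feature, the libraries were stranded, and no source used here states whether the counting used strand, so reads of Copg2 cannot be told apart from those of Mest in this value. Copg2 has no listed feature of its own. No other listed feature overlaps this span, and the nearest ones, Prrt4 and Exoc4, are 1.55 Mb and 2.35 Mb away. Prrt4 had a difference of 0.88 and Exoc4, a subunit of the exocyst, 1.70.

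**Figure D3:**
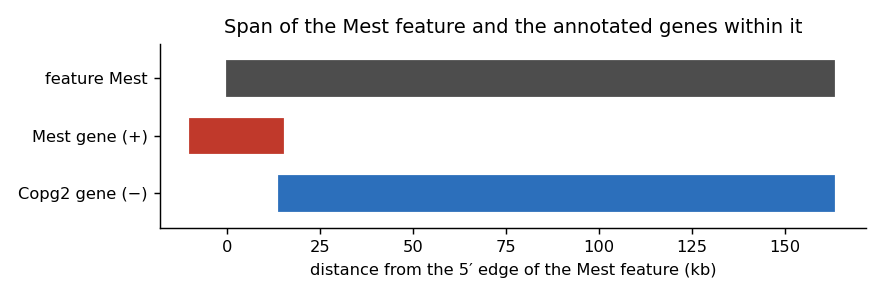
Span in kb of the listed feature named Mest (grey) and of the annotated genes Mest (red, plus strand) and Copg2 (blue, minus strand), measured from the 5′ edge of the feature. The feature covers 163 kb, and 91.4% of it lies in Copg2.

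The left edge of the feature coincides with the upstream RefSeq start of Mest at 30733506, while the main RefSeq start, 4544 bases further in at 30738050, lies in a window richer in CG. Both windows are shown because 1 value covers transcripts from both starts, again with CG in capitals and 5′ to 3′ on the plus strand.
Mest upstream promoter, chr6:30733256-30733555: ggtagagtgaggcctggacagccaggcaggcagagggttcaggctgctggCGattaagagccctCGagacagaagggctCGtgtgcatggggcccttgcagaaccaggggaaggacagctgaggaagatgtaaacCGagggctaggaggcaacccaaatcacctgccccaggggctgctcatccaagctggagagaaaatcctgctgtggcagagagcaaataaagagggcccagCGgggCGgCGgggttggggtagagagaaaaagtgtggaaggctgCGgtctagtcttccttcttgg
Mest main promoter, chr6:30737800-30738099: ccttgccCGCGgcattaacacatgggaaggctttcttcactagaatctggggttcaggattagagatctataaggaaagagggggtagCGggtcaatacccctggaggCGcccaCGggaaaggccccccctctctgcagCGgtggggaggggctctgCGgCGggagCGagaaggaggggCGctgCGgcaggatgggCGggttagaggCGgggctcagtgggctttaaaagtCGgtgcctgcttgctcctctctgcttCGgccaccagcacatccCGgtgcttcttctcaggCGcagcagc

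The upstream window holds 8 CG dinucleotides and the main window 17, with observed-over-expected ratios of 0.327 and 0.590. CANNTG occurs 2 times in the upstream window and 1 time in the main window. As many CG or more are found in 48.6% and 31.4% of all promoter windows. Between these starts and the end of the gene lies the hairpin of miR-335, 7793 bases from the 5′ edge of the feature. Of the annotated Mest transcripts, 7 span it and none has an exon that holds it, so it lies in intronic sequence. Its mature sequences are shown with the seed in capitals, and neither arm shares a seed with miR-675.
mmu-miR-335-5p: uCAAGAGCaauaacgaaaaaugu
mmu-miR-335-3p: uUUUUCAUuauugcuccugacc

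Peg3 had the smallest difference of the 4 genes. Its log2 FPKM was 5.48 in siCon and 5.87 in siH19, a difference of 0.39, which becomes -0.06 when the median of the listed features is subtracted. On the linear scale the level went from 44.6 to 58.5 FPKM, 1.31-fold. Peg3, also known as Pw1, encodes a large zinc finger protein that is expressed in muscle progenitor cells. It was the second most abundant of the 4 genes in both groups, ranking 349th by level in siCon and 308th in siH19. By absolute difference it ranked 2637th of 3019, and 43.1% of the features have a lower difference. Among 266 other features within 0.5 log2 FPKM of its siCon level the median difference is 0.36, with 150 higher and 116 lower. The most similar pairs of levels are those of Pja2, Calcoco1 and Cacna2d1, at distances of 0.0316 to 0.0640. The ratio of Peg3 to Mest in FPKM was 2.66 in siCon and 5.74 in siH19.

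**Figure D4:**
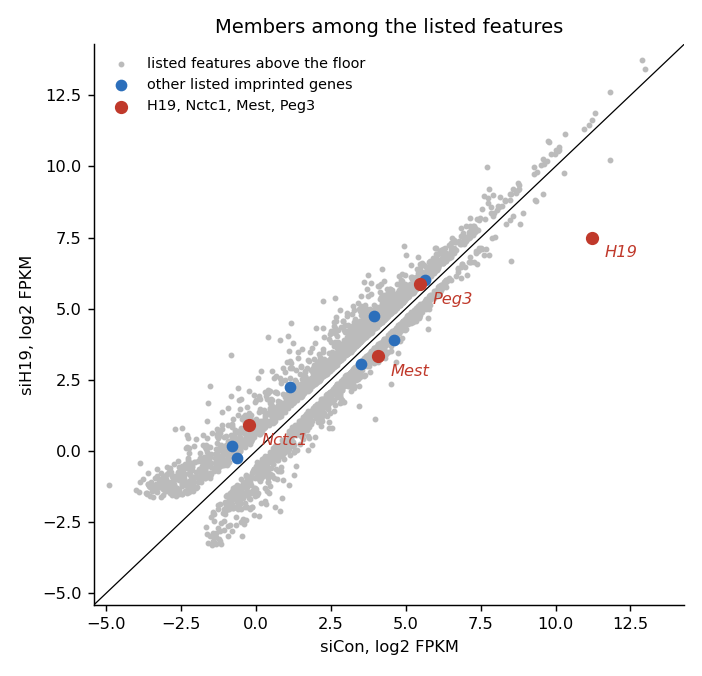
Pooled log2 FPKM in siH19 against siCon for the listed features above the floor (grey), with the 4 genes in red, the other listed imprinted genes in blue and equal levels as a line. The empty band along the line is where no feature was called. H19 (11.20, 7.50) is far below the line, and Peg3 (5.48, 5.87), whose difference is -0.06 after the listed median is subtracted, lies at the inner edge of the upper cloud.

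The Peg3 feature (XLOC_024791, chromosome 7, 6703850 to 6730419) matches the gene (ENSMUSG00000002265.16, protein coding, minus strand, 6703892 to 6730431), and its 5′ edge is the RefSeq start. Its neighbours are listed on both sides. Usp29, a deubiquitinase family gene transcribed away from Peg3 from the paternal copy, stood at -0.78 in siCon and 0.18 in siH19 (log2 FPKM), a difference of 0.96. Zim1, a zinc finger gene transcribed from the maternal copy, had 3.51 and 3.06, a difference of -0.45. The RefSeq starts of Peg3 and Usp29 are 164 bases apart in opposite directions, and their promoter windows share 263 of 300 bases. The sequence is shown because both genes of this head-to-head pair have a listed value, 5′ to 3′ for Peg3 on the minus strand, with CG in capitals.
Peg3 promoter, chr7:6730370-6730669: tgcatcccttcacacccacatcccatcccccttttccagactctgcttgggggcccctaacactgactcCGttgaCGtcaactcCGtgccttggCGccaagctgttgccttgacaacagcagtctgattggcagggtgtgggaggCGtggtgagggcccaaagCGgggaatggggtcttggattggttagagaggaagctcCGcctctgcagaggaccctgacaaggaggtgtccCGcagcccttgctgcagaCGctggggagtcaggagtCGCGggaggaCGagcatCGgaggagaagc

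It holds 13 CG dinucleotides at 61.3% G and C, an observed-over-expected ratio of 0.463, and no CANNTG. As many CG or more are found in 37.9% of all windows.

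Past a fold of 1.5, H19 and Mest were lower and Nctc1 higher, while Peg3 did not reach it. Among all listed features 16.9% were lower and 37.4% higher by at least that fold. Since the genes were taken from this same contrast, nothing is read from these counts.

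The 4 genes were set beside other imprinted genes. Of 75 genes of 19 imprinted clusters, written from general knowledge, 11 are listed, the 4 included, and 64 are not. The share of all genes that were called is not known from called features alone, so nothing is read from that number. Of the 11, 7 (63.6%) were higher and 4 lower in siH19, beside 62.8% higher among all listed features, with a median difference of 0.39 against 0.45 over all listed features. Without H19, Nctc1, Mest and Peg3, 5 of 7 (71.4%) were higher, with the same median of 0.39. These 7 are likewise listed only as calls of this contrast. With the listed median subtracted, 4 of the 11 were higher and 7 lower, and the 3 that turned are Peg3, Kcnq1ot1 and Cobl. By construction, about as many of all listed features are then above 0 as below, so the share of 62.8% no longer applies. Beyond the genes already described, Igf2r, the receptor that takes up and clears IGF2, stood at 4.60 in siCon and 3.89 in siH19 (log2 FPKM), a difference of -0.71. Kcnq1ot1, a silencing lncRNA of the neighbouring domain, was at -0.64 and -0.25, a difference of 0.39 that becomes -0.06 after subtraction. Cobl, an actin nucleator next to Grb10, was at 5.63 and 6.00, a difference of 0.37 that becomes -0.08. The features named Igf2, Igf2r, Kcnq1ot1 and Usp29 overlap genes annotated on the opposite strand, Igf2os, Airn, Kcnq1 and Zim3, so the same limit on strand holds for them as for Mest.

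By parental copy, 5 of the 6 listed genes that are known to be transcribed from the paternal copy were higher in siH19, Igf2, Ins2, Usp29, Peg3 and Kcnq1ot1, and Mest was lower, against 62.8% higher among all listed features. Of the 4 known to be transcribed from the maternal copy, H19, Igf2r and Zim1 were lower and Cobl higher, against 37.2% lower among all listed features. The direction of H19 follows from its being the siRNA target. Without H19, Nctc1, Mest and Peg3, 4 of 4 paternal genes were higher, and 2 of 3 maternal genes were lower. These 7 genes were also listed only because they were called in this contrast, and the list was written with earlier results known. Igf2 and Ins2 lie in the same cluster. After subtraction of the listed median, Peg3, Kcnq1ot1 and Cobl were lower as well. Imprinting of several of these genes, such as Ins2 and Cobl, is limited to certain tissues. Of 16 genes of the imprinted gene network, 5 are listed, of which Igf2 and Peg3 were higher (Peg3 at -0.06 after subtraction) and H19, Mest and Igf2r lower. Nothing is read from the number listed, since the share of all genes that were called is unknown here. Cdkn1c, Dlk1, Meg3, Gnas, Grb10, Plagl1, Ndn, Sgce, Slc38a4, Dcn and Nnat are not listed.

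**Figure D5:**
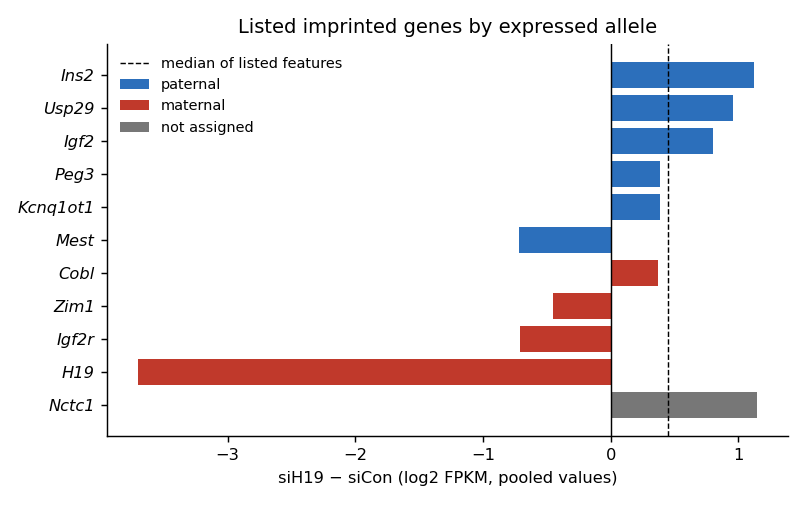
Difference between siH19 and siCon (log2 FPKM, pooled values) of the 11 listed imprinted genes, coloured by the parental copy they are known to be transcribed from, with the median of all listed features (0.45) as a dashed line. H19 is at -3.70, and 7 genes are above 0; Peg3, Kcnq1ot1 and Cobl are above 0 but below the dashed line.

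The order of levels among these 11 genes was nearly the same in both groups. H19, Cobl and Peg3 held the first 3 places in each. Mest went from the fifth to the sixth place, and Igf2 from the sixth to the fourth. Nctc1 was in the ninth place in both. Whether neighbours in this order differ beyond the spread of the libraries is unknown.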

How the data were processed

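Libraries of rRNA-depleted RNA were mapped by the authors to mm10 with TopHat (TopHat Alignment app 1.0.0, and TopHat2 2.0.7 in the submitters' processing notes), and Cuffdiff 2.1.1 compared the groups. The authors deposited log2 values, 1 log2 FPKM per group and feature to 2 decimals, pooled over 3 libraries, for called features only. The p-values adjusted for multiple tests and the log2 fold changes that the authors also deposited belong to their own comparison and were not used. The annotation given to the assembly is not given in the sources used here.

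Differences, ranks and Euclidean distances were computed from the pooled values with pandas 2.3.3 and numpy 2.4.6 under Python 3.11.15, with exact binomial 95% intervals over features (scipy 1.17.1), used only to judge whether a place among features moved, and plots from matplotlib 3.10.9. No test was run, since no values per library were analysed here, and depth is unknown. The scripts were tested on simulated data. Starts are given counted from 1: of 2304 features with 1 symbol found once in RefSeq, the listed start plus 1 equals the RefSeq start for 718, and the listed start itself for 70. Genes and lengths are from GENCODE M21 and sequences from RefSeq, both on GRCm38, the assembly called mm10.

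The members and lists were chosen with earlier results of these data known. Of the list of imprinted genes, 74 of 75 are named in GENCODE, and no older symbol of a list gene occurs in the table. Named genes are the 4 members, listed imprinted genes, the nearest listed feature on each side of a member and the 3 features with the most similar levels. Any other feature was added with its value in view, and marker genes come from a separate list. Alternatives were an added 1 FPKM, subtraction of the listed median, a minimum log2 FPKM of 0 in the higher group, features with a symbol only, features with 1 symbol and a fold of at least 1.5.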

Additional observations from a re-analysis of the deposited data

How the results depend on the processing

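Each value is 1 pooled estimate, so that leaving out a library could not be run. Whether any difference exceeds the spread between libraries was not assessed here. The authors' own comparison called every listed feature, and its adjusted p-values were not used. No paired analysis was possible because the columns carry no replicate. With 1 FPKM added, the log2 differences were -3.69 for H19, 0.64 for Nctc1, -0.67 for Mest and 0.38 for Peg3. With the listed median of 0.45 subtracted they were -4.15, 0.70, -1.17 and -0.06, so that Peg3 changed direction, which follows from the size of the subtracted value. That median is of called features alone and need not be near that of all genes. At a fold of at least 1.5, 4 of the 11 listed imprinted genes were higher in siH19 and 3 lower. Among all listed features 37.4% were higher and 16.9% lower by that fold. After subtraction 4 of the imprinted genes were higher and 7 lower, against 7 and 4 before it. By construction, the subtraction leaves about as many of all listed features above 0 as below.

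The place among features depends on which features are compared. Among the 2549 features with a symbol, the share below Nctc1 was 8.3% by siCon level, 16.1% by siH19 level and 93.3% by difference. For Mest it was 64.7% and 46.9% by level, for Peg3 86.7% and 88.3% by level and 46.9% by difference, and 0% of them had a lower difference than H19. Among the 2601 features that reach a log2 FPKM of 0 in either group, the share below Nctc1 was 4.77%, 13.1% and 90.6% in the same order. It was 64.6% and 45.9% by level and 9.07% by difference for Mest, and 86.5% and 88.1% by level for Peg3.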
